A study of Homo sapiens with 24 samples.

Results

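The mRNA decay machinery was followed as mRNA in U2OS cells, an established human osteosarcoma line. A list of 53 gene symbols was taken that covers deadenylases, decapping factors, the LSM ring, 5′-3′ exonucleases, the RNA exosome with its nucleases and Ski partners, and nonsense-mediated decay factors. The members were chosen by symbol and function, but with earlier results of these data known. Of the 53 symbols, 51 had a row among the 12547 endogenous gene rows of the deposited table, and CNOT3 and LSM2 were not analysed here. A filter on low values removed none of the 51.

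The series measured polyA RNA in 24 libraries, with 4 genotypes at 0, 4 and 8 h of chase and 2 libraries in each of 12 groups. Every group was treated for its stated time with 5 µg/mL actinomycin D, which blocks transcription, together with 200 µM sodium arsenite, an oxidative stressor, so loss of mRNA was measured under arsenite throughout. The genotypes were sgNS+EV (the control guide with an empty vector), sgQKI+EV (cells targeted at QKI with an empty vector), and QKI-targeted cells that received either sgQKI+QKI7-WT or sgQKI+QKI7-△KH, which by its label lacks the KH domain. QKI is an RNA-binding protein that recognises its target sites through that domain. Whether each line was a clone or a pool was not given in the sources used here. Nothing states that the 2 libraries of a group came from separate cultures, so p-values measure only the spread between these libraries, which may be technical.

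A poly(A) tail normally protects an mRNA, and its removal by PAN2-PAN3 and the CCR4-NOT complex commits most mRNAs to decay. The deadenylated message is then decapped by DCP2, with DCP1, the EDC proteins, PATL1 and the LSM1-7 ring as cofactors, and degraded from its 5′ end by XRN1, or it is degraded from its 3′ end by the exosome with the help of the Ski complex. Nonsense-mediated decay uses UPF1, the SMG proteins and the UPF2-UPF3 bridge to send messages with premature stop codons into the same pathways. The mRNAs of these factors are themselves substrates of the machinery they encode. Since polyA RNA was measured, a lower signal may mean a lost tail or a lost mRNA, which cannot be told apart here. Losses and half-lives below refer to that signal.

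Since the study concerns QKI, the members' annotated 3′ UTRs were searched on the transcript strand for ACTAAC, the core of the QKI recognition element. In 1 GENCODE transcript per gene, 5 of 51 members (9.8%) held it, against 17.2% of 11310 genes with a transcript. These 5 were CNOT6L, CNOT6, DIS3, XRN1 and CNOT7. Matches in CNOT6L, CNOT6, DIS3 and XRN1 are shown. CNOT7, which also fell (-1.04), holds a match that is not printed, and the size of its fall is not the reason. Capitals mark ACTAAC, and each window is 30 bases of 3′ UTR on GRCh38, read 5′ to 3′ on the strand of the mRNA.
CNOT6L, chr4:77718232-77718261, minus strand: ggaggtatatgcACTAACaaaacattttcc
CNOT6, chr5:180575831-180575860, plus strand: atactcactcttACTAACaatttttataca
CNOT6, chr5:180577678-180577707, plus strand: gtgatgcactggACTAACtcttgtttacca
DIS3, chr13:72753355-72753384, minus strand: atgagtattacaACTAACttcaccttccaa
XRN1, chr3:142310109-142310138, minus strand: tggactcctttcACTAACtgctgatttcag
A match describes letters in an annotated UTR, and neither binding nor use of that UTR in these cells was measured.

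The deposited values were a linear signal scaled to ERCC spike-in RNAs, with ERCC sums of 11480 to 11940 per library and sums over endogenous genes of 690400 to 1368000. How the spike-in was added was not given, so a shift shared by most genes may come from fewer cells or from less RNA per cell, which cannot be told apart. Read depth is unknown. Replicate libraries correlated across genes with Pearson r between 0.9889 and 0.9982, and the pair that agreed least was sgQKI+QKI7-WT at 4 h. At 0 h QKI mRNA read 59.98 and 48.19 in sgNS+EV, 35.98 and 32.66 in sgQKI+EV, 47.55 and 50.17 in sgQKI+QKI7-△KH and 60.43 and 46.28 in sgQKI+QKI7-WT. It was lower in sgQKI+EV than in sgNS+EV by limma (log2 difference -0.63, SE 0.14, adjusted p = 0.0264), so QKI mRNA was reduced and not absent, and the row does not separate endogenous from introduced QKI. Of 6 mesenchymal markers 5 had a row, summing to 5162 to 6226 at 0 h, and of 6 epithelial markers 4 had a row, summing to 1144 to 1375. Osteoblast-lineage markers had 2 of 6 rows (RUNX2 and SPP1, 32.46 to 42.16 summed), blood markers 1 of 6 (CD68, 13.33 to 19.39) and endothelial markers 0 of 3.

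Over 8 h of chase nearly the whole machinery lost mRNA, but members differed widely in how much. Changes were fitted on log2(value + 1) with limma, a linear model over all 24 libraries, and called at an adjusted p under 0.05 over 12547 genes. Averaged over the 4 genotypes, 50 of 51 members were lower at 8 h and none was higher, against 95.7% of all genes lower and 0.614% higher, so the count itself is at the background. The members' median change was -0.71, beside -0.76 for all genes, and 15 members fell at least 2-fold, where 30.4% of all genes did. CNOT6L lost the most (-2.30) and EXOSC5 the least (-0.08, adjusted p = 0.216, the member that did not pass). In 44 of 51 members (86.3%) all 8 libraries at 8 h lay below all 8 at 0 h, which held for 79.3% of all genes. After 4 h, 43 members were lower and none higher (80.2% of all genes lower, 1.24% higher), with a median of -0.28 beside -0.34 for all genes, and 2 members had fallen at least 2-fold, where 5.24% of all genes had.

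**Figure D1:**
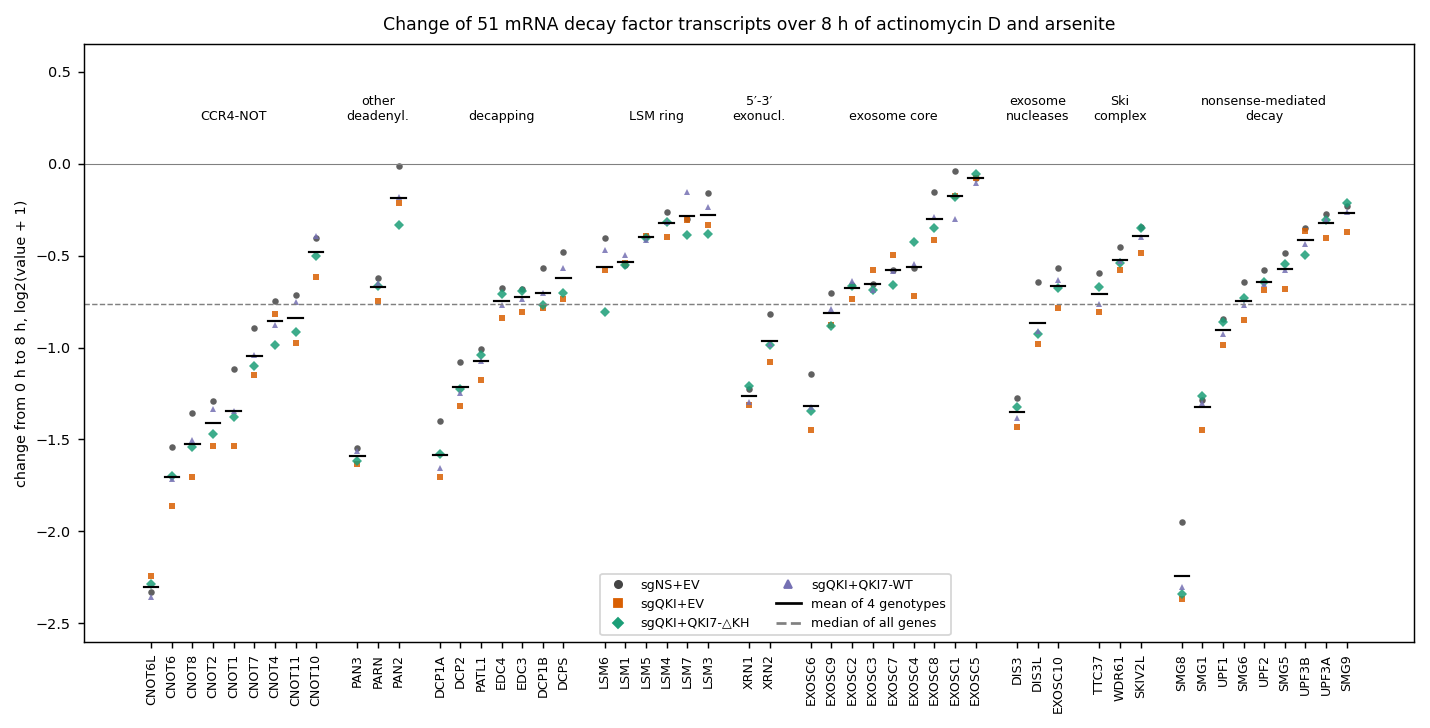
Change of each of 51 decay factor mRNAs from 0 h to 8 h on the log2(value + 1) scale, grouped by complex. Coloured points are the 4 genotypes, black bars their mean, and the dashed line the median of all genes at -0.76; CNOT6L and SMG8 lie lowest at -2.30 and -2.24, and the 6 LSM ring members lie between -0.56 and -0.28.

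That nearly every member fell holds on the spike-in scale only. When each library was scaled to its own total, the all-gene median over 8 h became -0.25, and 12 members were higher and 30 lower, against 19.5% of all genes higher and 62.3% lower. With quantile normalisation the all-gene median was 0.05, with 30 members higher and 18 lower, against 45.8% and 36.5% of all genes. At 4 h the split was 11 higher and 24 lower on library totals (17.8% and 50.8% of all genes), and 23 higher and 16 lower with quantile normalisation (41.3% and 30% of all genes). Directions below are therefore given on the spike-in scale. The 8 h change of 20 members stayed negative under quantile normalisation and both kinds of library totals (with and without ribosomal RNA): CNOT1, CNOT2, CNOT6, CNOT6L, CNOT7, CNOT8, CNOT11, PAN3, DCP1A, DCP2, PATL1, XRN1, XRN2, EXOSC6, EXOSC9, DIS3, DIS3L, UPF1, SMG1 and SMG8. A negative sign is not a call. With quantile normalisation DIS3L (-0.006, adjusted p = 0.844 by limma) and UPF1 (-0.028, adjusted p = 0.469 by limma) did not pass. The other 31 turned positive under at least 1 of these scalings, as given in the closing section.

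CCR4-NOT, the main cytoplasmic deadenylase, had the lowest median of the complexes. All 9 measured subunits were lower at 8 h, as were 95.7% of all genes, with a median of -1.34 beside -0.76 for all genes. All 9 were already lower at 4 h, as were 80.2% of all genes, with a median of -0.61 beside -0.34. CNOT6L encodes one of the alternative CCR4-type catalytic subunits. Its signal over the 8 libraries of each time point ran from 7.747 to 10.89 (median 9.674) at 0 h, from 2.457 to 4.433 (median 2.639) at 4 h and from 0.8569 to 1.349 (median 1.116) at 8 h. The 3 time points did not overlap. The change to 8 h was -2.30 (SE 0.08, adjusted p = 5.82e-17), and since its 8 h values are near the added constant of 1, this scale understates the fall. Without the constant, 11.2% of the 0 h signal was left in sgNS+EV, 12.1% in sgQKI+EV, 12.8% in sgQKI+QKI7-△KH and 10.9% in sgQKI+QKI7-WT. For exponential loss between 0 h and 8 h that is a half-life of the polyA signal of 2.50 to 2.70 h. At 4 h the genotypes differed more, with 44.05%, 29.78%, 24.28% and 37.07% left in the same order, so these half-lives describe the end points only.

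CNOT6, the other CCR4-type subunit, was less labile but still among the 3 largest falls. It ran from 30.16 to 39.8 (median 35.43) at 0 h, from 13.44 to 21.96 (median 16.04) at 4 h and from 8.172 to 11.7 (median 10.07) at 8 h. Its time points did not overlap either, and the change to 8 h was -1.70 (SE 0.05, adjusted p = 3.61e-18). CNOT1, the scaffold on which the complex assembles, ran from 114.9 to 145.2 (median 120.7) at 0 h and from 38.75 to 56.35 (median 49.05) at 8 h, a change of -1.34 (SE 0.04, adjusted p = 4.30e-19). The CAF1-type catalytic subunits CNOT8 (-1.53) and CNOT7 (-1.04) also fell, as did CNOT2 (-1.41), a structural subunit, and the ubiquitin ligase CNOT4 (-0.86). CNOT11 (-0.84) and CNOT10 (-0.48), which form a module at the other end of the scaffold, changed least within the complex.

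The partners of the second deadenylase, PAN2-PAN3, stood far apart. PAN3, the adaptor that recruits the complex to poly(A)-binding protein, ran from 15.22 to 19.31 (median 18.27) at 0 h and from 4.577 to 5.542 (median 5.251) at 8 h, a change of -1.59 (SE 0.06). PAN2, the catalytic partner, ran from 15.05 to 18.8 (median 16.49) at 0 h and from 13.24 to 18.24 (median 13.62) at 8 h. Its 0 h and 8 h values overlapped with the genotypes pooled, and within a genotype only in sgNS+EV. Within a genotype 93.1% to 95.1% of all genes did not overlap. The PAN2 change of -0.19 (SE 0.04, adjusted p = 1.29e-04 by limma) was among the 3 smallest. PARN, a separate poly(A)-specific ribonuclease, lay between them at -0.67 (SE 0.03).

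All 7 decapping genes were lower at 8 h (median -0.75) and at 4 h, as were 95.7% and 80.2% of all genes. DCP1A, an activator of the decapping enzyme, lost the most, at -1.58 (SE 0.05). DCP2, the enzyme that removes the cap, ran from 16.61 to 21.05 (median 19.68) at 0 h, from 9.377 to 14.31 (median 10.7) at 4 h and from 6.799 to 8.929 (median 7.572) at 8 h, a change of -1.22 (SE 0.05). Its 3 time points did not overlap. PATL1, which links deadenylation to decapping, changed by -1.075, and the enhancers EDC4 and EDC3 by -0.75 and -0.73. DCP1B followed at -0.705, and DCPS, which clears the cap remnant after 3′-5′ decay, at -0.62.

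The LSM ring, a heteroheptamer that binds the oligoadenylated 3′ end and promotes decapping, was at the stable end of the machinery. Its 6 measured members were all lower at 8 h, as were 95.7% of all genes, but their median change was -0.36. All 6 turned positive with quantile normalisation, and 3 of 6 had passed as lower at 4 h, against 80.2% of all genes. LSM3, shared with the nuclear LSM2-8 ring of U6 snRNA, ran from 307 to 393.6 (median 323.8) at 0 h, from 305.3 to 454.4 (median 326) at 4 h and from 246.4 to 303.3 (median 281.3) at 8 h. Its 0 h and 4 h values overlapped fully, and its highest 8 h value lay just under its lowest 0 h value. The change to 8 h was -0.28 (SE 0.05, adjusted p = 8.03e-06). LSM1, the subunit that sets the cytoplasmic ring apart, changed by -0.54, LSM6 by -0.56, LSM5 by -0.40, LSM4 by -0.32 and LSM7 by -0.29.

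Both 5′-3′ exonucleases fell, as did 95.7% of all genes. XRN1, which degrades decapped mRNA in the cytoplasm, ran from 11.32 to 13.55 (median 12.66) at 0 h, from 6.554 to 10.96 (median 7.612) at 4 h and from 3.98 to 5.529 (median 4.617) at 8 h. The time points did not overlap, and the change to 8 h was -1.26 (SE 0.06, adjusted p = 2.02e-14). The nuclear paralog XRN2 changed by -0.97 (SE 0.04).

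**Figure D2:**
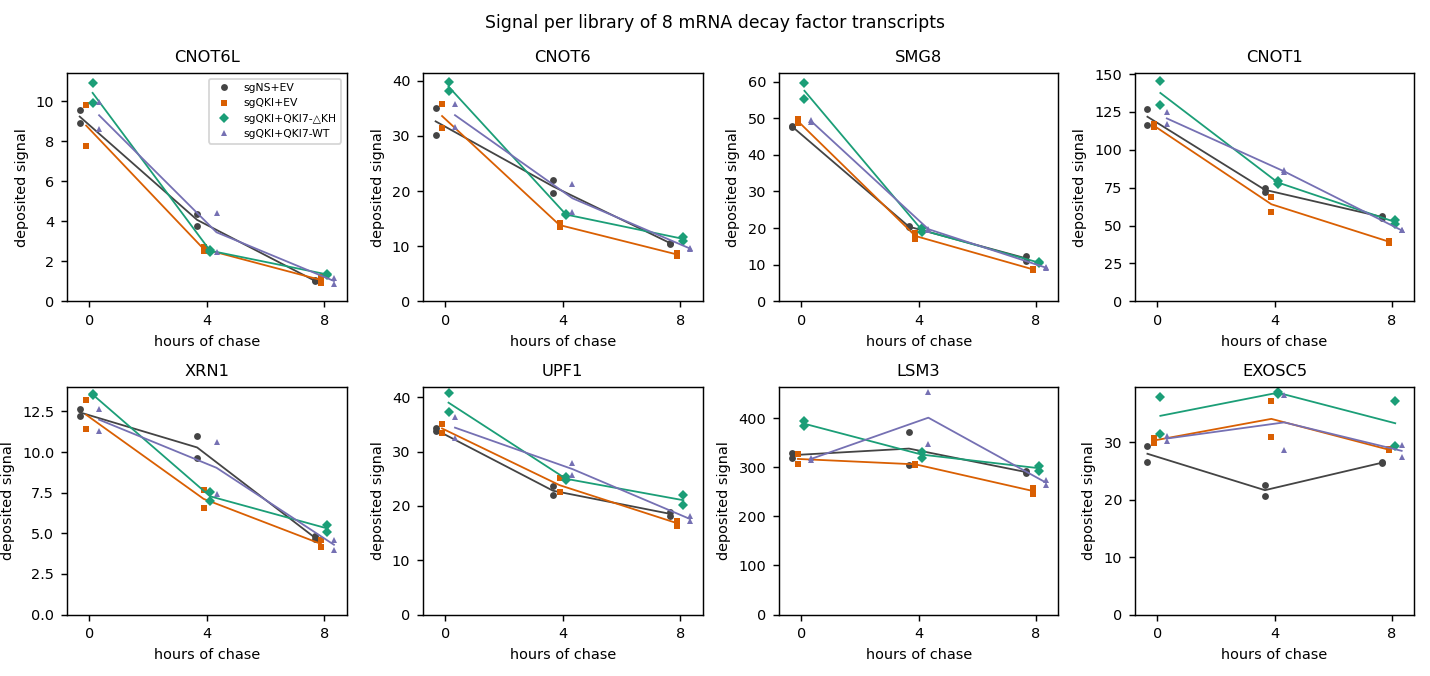
Deposited spike-in-scaled signal against hours of chase for 8 decay factor mRNAs, with a point per library and a line through each genotype's mean. CNOT6L falls from a median of 9.674 to 1.116 and SMG8 from 49.25 to 9.912, while EXOSC5 stays near its 0 h median of 30.45 with 28.67 at 8 h.

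Exosome mRNAs spanned most of the range seen in the machinery. Of the 9 core genes, which encode the catalytically inert barrel and cap, 8 were lower at 8 h (median -0.58) and 6 at 4 h. Over all genes 95.7% were lower at 8 h and 80.2% at 4 h. EXOSC6 was the exception at the labile end, running from 42.84 to 54.85 (median 47.86) at 0 h and from 16.04 to 20.77 (median 18.45) at 8 h, a change of -1.32 (SE 0.05). EXOSC5 ran from 26.53 to 37.77 (median 30.45) at 0 h, from 20.66 to 38.75 (median 34.03) at 4 h and from 26.36 to 37.19 (median 28.67) at 8 h. These ranges overlapped with the genotypes pooled. Within a genotype its 0 h and 8 h values overlapped only in sgQKI+QKI7-△KH, where 95% of all genes did not overlap. EXOSC1 (-0.17) and EXOSC8 (-0.30) were also little changed. EXOSC9 had moved by -0.10 at 4 h and by -0.81 at 8 h. Among the nucleases that give the barrel its activity, DIS3 changed by -1.35 (SE 0.06), its cytoplasmic paralog DIS3L by -0.865 (SE 0.04) and EXOSC10, the nuclear RRP6 protein, by -0.66 (SE 0.04). The Ski complex feeds cytoplasmic mRNA into the exosome. All 3 of its genes fell, as did 95.7% of all genes: TTC37 (-0.71), WDR61 (-0.52) and the helicase SKIV2L (-0.39). With quantile normalisation all 3 values were positive.

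Nonsense-mediated decay held both the second largest fall of the list (SMG8) and a fall among the smallest (SMG9). All 9 of its members were lower at 8 h (median -0.64), as were 95.7% of all genes. SMG8, a regulatory partner of the SMG1 kinase, ran from 47.72 to 59.72 (median 49.25) at 0 h, from 17.07 to 20.46 (median 19.69) at 4 h and from 8.659 to 12.43 (median 9.912) at 8 h. No time points overlapped, and the change was -2.24 (SE 0.04, adjusted p = 1.64e-22). After 8 h sgNS+EV cells kept 24.4% of the SMG8 signal, sgQKI+EV cells 17.7%, sgQKI+QKI7-△KH cells 18.3% and sgQKI+QKI7-WT cells 18.7%. SMG9, the third subunit of that kinase complex, changed by only -0.27 (SE 0.05). Its 0 h and 8 h values overlapped with the genotypes pooled. They did not overlap within any genotype, as for 93.1% to 95.1% of all genes. The kinase gene SMG1 itself changed by -1.325 (SE 0.04). SMG1 has closely similar copies elsewhere in the genome, so its value may include reads from them.

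UPF1, the central helicase, ran from 32.5 to 40.77 (median 34.74) at 0 h, from 21.95 to 27.91 (median 24.92) at 4 h and from 16.36 to 22 (median 18.09) at 8 h, a change of -0.90 (SE 0.04, adjusted p = 2.22e-15). The endonuclease SMG6 changed by -0.75 and SMG5, an adaptor that recruits deadenylation and decapping, by -0.57. UPF2, which bridges UPF1 to the exon junction complex, changed by -0.64, and the UPF3 paralogs by -0.41 (UPF3B) and -0.32 (UPF3A).

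Other genes of the same pathways, a list of 45 of which 41 had a row, ran from -4.08 to -0.01 at 8 h. Of these 39 were lower, none was higher and 2 did not pass, against 95.7% of all genes lower and 0.614% higher. Their median was -0.90. The largest falls were those of PNRC1 (-4.08) and PNRC2 (-2.74), which bind decapping factors, the decapping-linked helicase DDX6 (-2.41), EIF4ENIF1 (-2.09), a partner of the cap-binding protein, and the deadenylase-related NOCT (-1.89). PABPC1, the cytoplasmic poly(A)-binding protein, changed by -0.46, and PABPN1 (-0.01) and the decapping enzyme DXO (-0.10) did not pass.

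Most pairs of related genes did not decay in step. Unrelated pairs were not compared, and the 8 h changes of all genes had an SD of 0.51. A shifted ratio is therefore not by itself particular to related genes. For 6 pairs of related genes the log2 ratio within a library was compared between 0 h and 8 h by an exact permutation test of time labels within genotype, two-sided, with p adjusted over the 6 pairs. A ratio within a library is free of any 1-factor scaling before the constant of 1 is added. Its size at 1 time point compares genes in a unit that was not given, so only its change is read. With 8 libraries at each time, 0.00185 was the smallest adjusted p obtained, from a raw p of 0.00154, the smallest these 1296 permutations can give.

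CNOT6 gained on CNOT6L, from a log2 ratio of 1.78 ± 0.07 (SD) to 2.38 ± 0.16, a change of 0.60 (exact adjusted p = 0.00185), or 1.19 with a constant of 0.1. CNOT7 gained on CNOT8 by 0.48 (exact adjusted p = 0.00185), or 0.31 with quantile normalisation. DCP1A lost against DCP1B by the widest margin, from -0.56 ± 0.11 to -1.44 ± 0.10, a change of -0.88 (exact adjusted p = 0.00185). These 3 pairs moved the same way in 4 of 4 genotypes, and their 0 h and 8 h libraries did not overlap.

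DIS3 lost against DIS3L, from -0.97 ± 0.07 to -1.46 ± 0.06 (change -0.49, exact adjusted p = 0.00185), again in 4 of 4 genotypes and without overlap. XRN1 lost less against XRN2, with a change of -0.29 (exact adjusted p = 0.00185) in 4 of 4 genotypes, and its 0 h and 8 h libraries overlapped slightly (lowest 0 h ratio -3.65, highest 8 h ratio -3.63). UPF3A and UPF3B were not separated, with a change of 0.09 (exact adjusted p = 0.16) that had the same sign in 3 of 4 genotypes. With quantile normalisation, which is not a 1-factor scaling, the XRN1 and XRN2 change turned to 0.07 (exact adjusted p = 0.0201) and that of UPF3A and UPF3B to -0.15 (exact adjusted p = 0.00741).

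**Figure D3:**
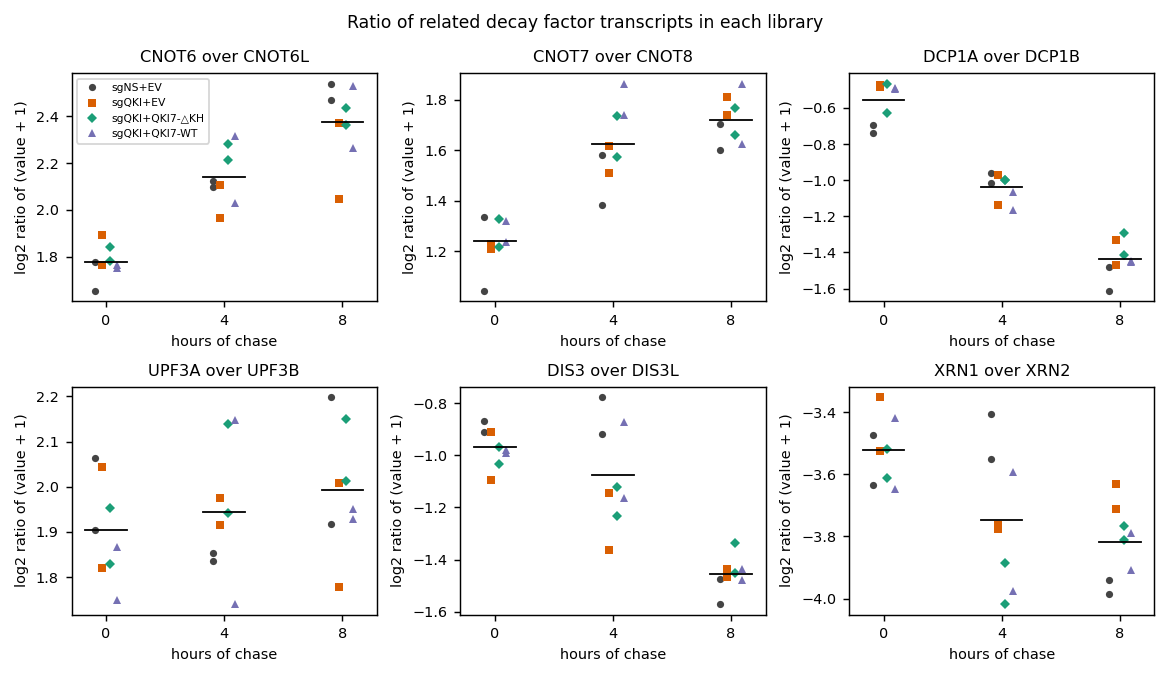
Log2 ratio of (value + 1) of 6 pairs of related decay factor mRNAs against hours of chase, with a point per library, coloured by genotype, and a bar at the mean of the 8 libraries of each time. DCP1A over DCP1B drops from -0.56 to -1.44 and CNOT6 over CNOT6L rises from 1.78 to 2.38, while UPF3A over UPF3B goes from 1.90 to 1.99.

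Large and small falls lined up with the length of the annotated transcript. Over the 51 members, Spearman's rho between the 8 h change and transcript length was -0.57, beside -0.49 over 11310 genes. It was -0.44 for coding length (-0.30 over all genes) and -0.36 for 3′ UTR length (-0.45 over all genes). These are descriptions across genes, which are not independent and share the same libraries, and 1 GENCODE 29 transcript stands for each gene whether or not these cells use it. In the 17 members with the largest falls the median coding length was 2310 bases and the median 3′ UTR 4152 bases, against 735 and 349 bases in the 17 with the smallest falls.

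ATTTA, the core of AU-rich elements, was searched in the same 3′ UTRs on the transcript strand. It was present in 36 of 51 members (70.6%), close to the 69.8% of all genes, with a rho of -0.39 between its count and the 8 h change (-0.43 over all genes). Of the 17 members with the largest falls 16 held it, of the 17 in the middle 9 did and of the 17 with the smallest falls 11 did. The 5 members with ACTAAC were all in the group of 17 with the largest falls. Their median change was -1.35, beside -0.67 for the 46 without it, and over all genes the medians were -0.96 with it and -0.73 without. CNOT6L alone had 26 ATTTA copies in a 3′ UTR of 7044 bases, and motif counts were not adjusted for UTR length.

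**Figure D4:**
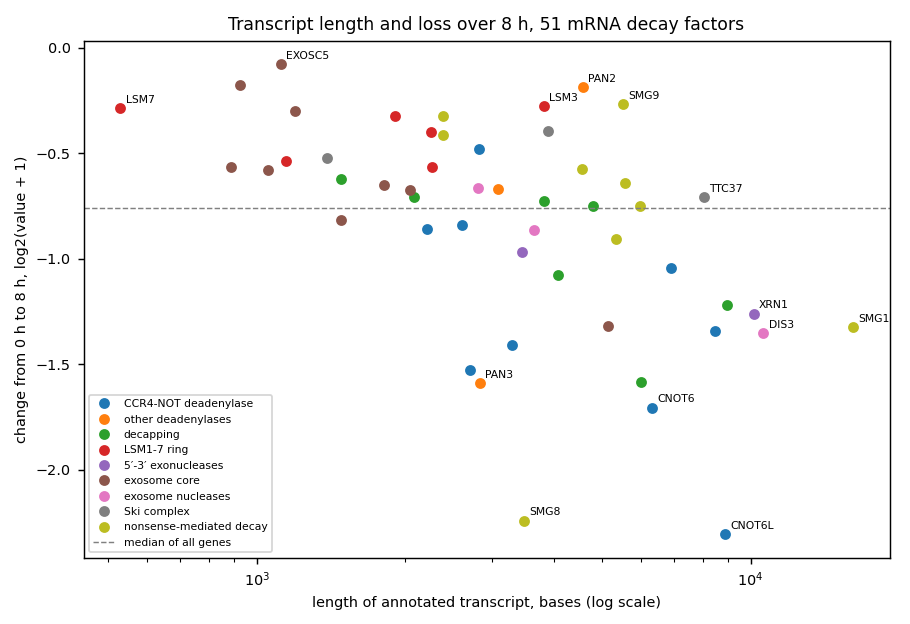
Change from 0 h to 8 h on the log2(value + 1) scale against the length of the annotated transcript (log axis) for 51 decay factor mRNAs, coloured by complex. Longer transcripts lie lower (Spearman's rho -0.57), with SMG8 (-2.24 at 3477 bases) below others of its length.

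At 0 h no member was called different after QKI targeting. Between sgQKI+EV and sgNS+EV none of 51 members passed limma's test (1.55% of all genes did), 4 had an unadjusted p under 0.05 (14.1% of all genes), and the median difference was -0.03 beside -0.06 for all genes. The member differences ran from -0.22 to 0.13. EXOSC7 read 41.83 and 41.91 in sgNS+EV and 37.74 and 33.94 in sgQKI+EV, without overlap, and passed as lower when the compared groups were fitted alone, as did 9.44% of all genes. PATL1, EXOSC9 and DIS3L passed as higher on library totals (7.41% of all genes), and EXOSC9 and DIS3L with quantile normalisation (2.59%). No member passed between sgQKI+QKI7-WT and sgQKI+EV either (0.0877% of all genes did), with 1 at an unadjusted p under 0.05 (4.75% of all genes) and a median of 0.03, as for all genes.

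sgQKI+QKI7-△KH at 0 h was higher than sgQKI+EV in 12 of 51 members and lower in none, by limma, but 12.6% of all genes were higher, and the members' median of 0.21 lay beside an all-gene median of 0.19. The comparisons above share the sgQKI+EV libraries. EXOSC7 read 37.74 and 33.94 in sgQKI+EV and 50.55 and 46.68 in sgQKI+QKI7-△KH, without overlap (0.43, adjusted p = 0.0124 by limma). EXOSC1 read 46.75 and 52.84 against 67.99 and 59.51 (0.35, adjusted p = 0.0162 by limma), and LSM1 read 70.42 and 71.61 against 91.69 and 84.13 (0.30, adjusted p = 0.0270 by limma). LSM3 (0.29), WDR61, EXOSC2 (both 0.27), EXOSC9 and PATL1 (both 0.26) followed, and XRN2, CNOT1, CNOT7 and CNOT11 passed with smaller differences of 0.24 to 0.26. The count was 0 on library totals and with quantile normalisation. It was 0 without sgQKI+EV replicate 2 or sgQKI+QKI7-△KH replicate 1, 1 without sgQKI+EV replicate 1 and 9 without sgQKI+QKI7-△KH replicate 2.

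Between the QKI7 forms at 0 h, 1 of 51 members passed, CNOT11, which was lower with sgQKI+QKI7-WT (-0.29, adjusted p = 0.0278 by limma), against 3.71% of all genes lower. The median over members was -0.18 beside -0.15 for all genes, and the call was lost on library totals and with quantile normalisation.

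The loss over 8 h was also called within each genotype. Members lower at 8 h numbered 46 in sgNS+EV (88.2% of all genes lower), 50 in sgQKI+EV (90.5%), 50 in sgQKI+QKI7-△KH (90.6%) and 49 in sgQKI+QKI7-WT (90% of all genes). No member was higher in any of them. On library totals, 7, 7, 8 and 8 members in the same order were higher (12.9%, 12.4%, 13.6% and 11.7% of all genes) and 23, 27, 23 and 25 lower (48.9%, 52.4%, 48.8% and 54.1%). With quantile normalisation 16, 25, 17 and 18 were higher (33.2%, 36.1%, 34.2% and 34.1% of all genes) and 15, 17, 18 and 17 lower (26.9%, 29.8%, 28.6% and 28.7%). The median share of the 0 h signal left at 8 h was 63.1%, 56.7%, 60.1% and 60.4% in the same order.

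The difference in 8 h change between sgQKI+EV and sgNS+EV, tested in limma as an interaction, passed in none of 51 members (0.677% of all genes passed, nearly all with a larger fall in sgQKI+EV), while 13 members had an unadjusted p under 0.05, as did 17% of all genes. The members' median was -0.17 beside -0.14 for all genes. CNOT1 and SMG8 came closest, each at -0.42 (SE 0.10, adjusted p = 0.0605 by limma). CNOT1 kept 45.65% of its signal at 8 h in sgNS+EV and 33.97% in sgQKI+EV. With the compared groups alone 7 members passed, all with a larger fall in sgQKI+EV, as did 10.7% of all genes in that fit: CNOT1, CNOT7, CNOT8, CNOT11, XRN2, DIS3L and SMG8. Between sgQKI+QKI7-WT and sgQKI+QKI7-△KH no member passed over 8 h (0% of all genes did), none had an unadjusted p under 0.05 (0.956% of all genes did), and the member differences ran from -0.12 to 0.34 with a median SE over all genes of 0.15.

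Over the first 4 h the genotypes differed more, in a comparison chosen after the data were seen. Between sgQKI+EV and sgNS+EV 7 of 51 members passed limma's interaction test, 4 with a larger fall in sgQKI+EV and 3 with a smaller one, where 8.89% of all genes had a larger fall and 1.8% a smaller one. CNOT6 read 35.14 and 30.16 at 0 h and 21.96 and 19.72 at 4 h in sgNS+EV, and 35.73 and 31.48 at 0 h and 14.23 and 13.44 at 4 h in sgQKI+EV. The genotypes overlapped at 0 h and not at 4 h, with 63.8% left in sgNS+EV and 41.2% in sgQKI+EV (difference -0.60, SE 0.15, adjusted p = 0.0347 by limma).

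DCP2 read 19.42 and 16.61 at 0 h and 14.06 and 14.31 at 4 h in sgNS+EV against 20.1 and 17.6, then 9.377 and 9.51, in sgQKI+EV, again overlapping at 0 h and not at 4 h (-0.60, SE 0.15, adjusted p = 0.0347 by limma). DCP1A (-0.48) and SMG1 (-0.41) were the others with a larger fall. At 8 h the same 4 genes did not pass, and DCP2 had 44.4% left in sgNS+EV and 36.8% in sgQKI+EV.

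The 3 members with a smaller fall in sgQKI+EV were LSM7 (0.67, SE 0.18, adjusted p = 0.0365 by limma), EXOSC4 (0.58) and EXOSC7 (0.39). LSM7 read 164.3 and 178 at 0 h and 109.2 and 130.1 at 4 h in sgNS+EV, and 159.3 and 157.1 at 0 h and 181.4 and 169.7 at 4 h in sgQKI+EV. In sgNS+EV its 4 h values lay below both its 0 h values and its 8 h values of 137.7 and 139.3. EXOSC4 likewise read 41.37 and 49.13 at 4 h in sgNS+EV, beside 67.31 and 57.32 in sgQKI+EV. On group means EXOSC4 had 89.5% left at 4 h in sgQKI+QKI7-△KH and 90.4% in sgQKI+QKI7-WT, beside 61.9% in sgNS+EV. The sgQKI+QKI7-WT libraries disagreed for EXOSC4, with 53.4 and 69.83 at 4 h beside 63.87 and 72.5 at 0 h. Replicate 1 of that group at 4 h was also low for LSM7, at 126.3. The group's LSM7 values were 150.7 and 171.4 at 0 h and 155.7 and 134.4 at 8 h. Leaving out 1 of the 8 libraries of this comparison took the 7 calls to between 0 and 5, although all 7 genes passed with quantile normalisation too. On library totals 26 members passed, 25 of them with a larger fall in sgQKI+EV (37.6% of all genes) and 1 with a smaller one (1.09%), and 5 of the 7 genes were among them.

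Between sgQKI+QKI7-WT and sgQKI+QKI7-△KH 13 members passed over the first 4 h, all with a smaller fall in sgQKI+QKI7-WT, against 16% of all genes, and the members' median of 0.29 lay beside an all-gene median of 0.24. CCR4-NOT gave 5 of them (CNOT1, CNOT2, CNOT7, CNOT10 and CNOT11) and the LSM ring 4 (LSM1, LSM3, LSM5 and LSM6). LSM3 had the largest difference (0.58, SE 0.13, adjusted p = 0.0288 by limma), from 314.8 and 319.4 at 0 h to 454.4 and 348.3 at 4 h in sgQKI+QKI7-WT and from 393.6 and 384.1 to 332.1 and 319.9 in sgQKI+QKI7-△KH. The 2 libraries of sgQKI+QKI7-WT at 4 h disagreed, and the calls depended on which of them was kept. The LSM3 difference was 0.39 without replicate 1 of that group and 0.77 without replicate 2. No member passed on library totals or with quantile normalisation, and leaving out any other library of the comparison gave between 0 and 10.

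**Figure D5:**
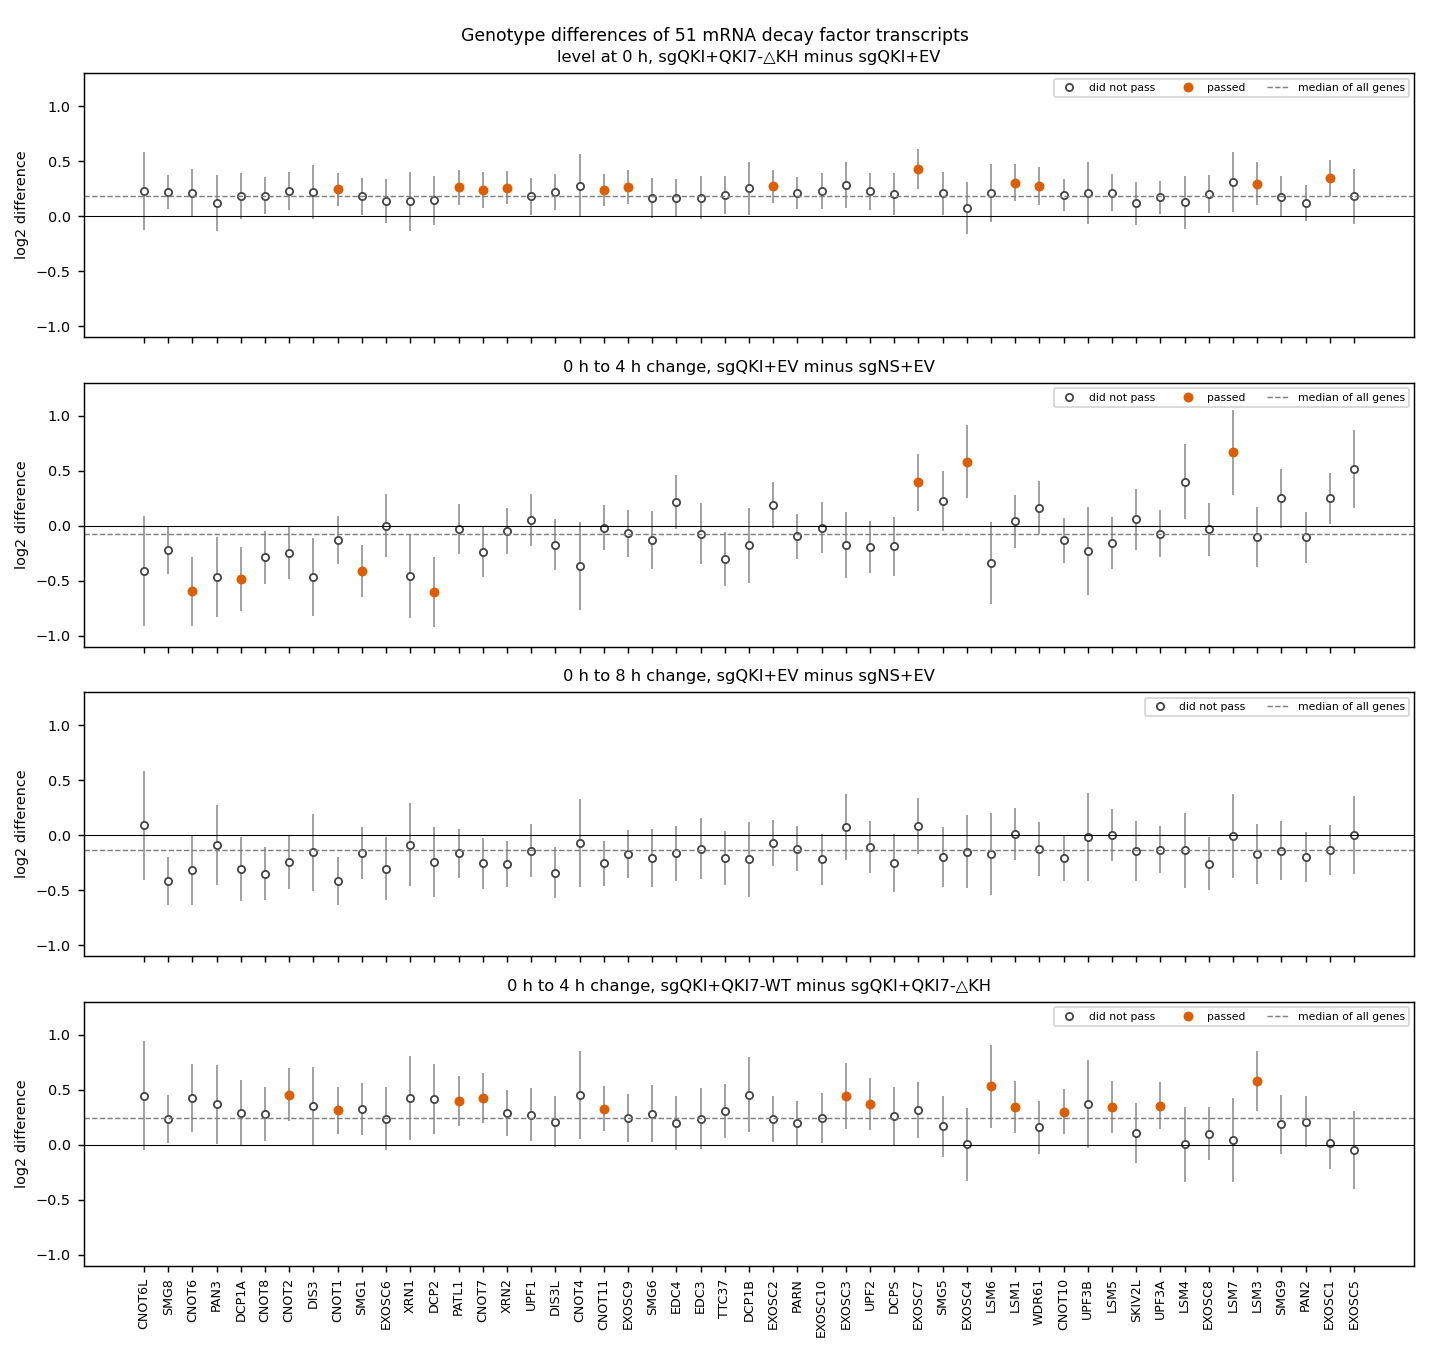
Log2 differences of 51 decay factor mRNAs, ordered by their 8 h change from the largest fall (CNOT6L, left) to the smallest (EXOSC5, right), with 95% intervals from limma and filled points where the adjusted p was under 0.05. The panels hold 12, 7, 0 and 13 filled points, and in the first and last panels most members lie near the all-gene median (dashed).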

How the data were processed

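PolyA RNA of 24 U2OS libraries was read from 1 table. Its values are a linear signal that the authors had deposited after scaling to ERCC spike-ins, a reading that rests on the near-constant sum of the 38 ERCC rows. STAR, RSEM and GRCh38 are named in the submitters' processing notes without versions, and the unit before scaling was not given in the sources used here. The depth of each library is unknown, so precision comes from replicate libraries.

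Groups came from the sample labels. Values were taken as log2(value + 1), and requiring 1 or more in 2 or more libraries excluded 0 genes. limma 3.58.1 in R 4.3.3 fitted 12 group means with a mean-variance trend, with 12 residual and 9 prior degrees of freedom. Tests were two-sided, with Benjamini-Hochberg adjustment across 12547 genes and a threshold of 0.05. The median SE was 0.106 for a difference at 0 h, 0.0532 for a change averaged over genotypes and 0.15 for a decay difference. Both tests were tried on simulated data with independent noise and no shift shared by most genes. How the calls behave under such a shared shift was not simulated.

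The members, lists and tests were chosen with earlier results of these data known. Named genes were 15 core enzymes and scaffolds, 6 related pairs, the 6 highest and 6 lowest 8 h changes and, elsewhere, members that passed (at most 8 by size) or the 2 with the smallest p; other members are named to complete their complex. Both 4 h interaction tests were added after the data were seen. Transcripts and positions come from GENCODE 29. Alternatives were quantile normalisation, library totals with and without ribosomal RNA, a constant of 0.1, no filter, a mean of at least 5, a replicate block, the compared groups alone, leaving out both sgQKI+QKI7-WT 4 h libraries and leaving out each library in turn.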

Additional observations from a re-analysis of the deposited data

Results flagged for a closer look

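Differences between genotypes in the change over the first 4 h passed the interaction test of limma for the members listed here. For sgQKI+EV minus sgNS+EV they were negative for DCP2 (-0.60), CNOT6 (-0.60), DCP1A (-0.48) and SMG1 (-0.41), and positive for LSM7 (0.67), EXOSC4 (0.58) and EXOSC7 (0.39). For sgQKI+QKI7-WT minus sgQKI+QKI7-△KH all were positive: LSM3 (0.58), LSM6 (0.53), CNOT2 (0.46), EXOSC3 (0.44), CNOT7 (0.42), PATL1 (0.40), UPF2 (0.37), UPF3A (0.35), LSM1 (0.34), LSM5 (0.34), CNOT11 (0.33), CNOT1 (0.31) and CNOT10 (0.30). QKI mRNA also passed, at -0.99 (adjusted p = 0.0347) in the first comparison and 0.65 (adjusted p = 0.0407) in the second, and its part in the members' values was not tested.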

How the results depend on the processing

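Replicate numbers did not pair the libraries with a common sign. Over 66 pairs of groups the deviations correlated between -0.42 and 0.48 (median -0.02), 21 above 0.1 and 20 below -0.1. Whether libraries share technical deviations was not tested. The cause of each change below was not tested. Here, and for every fit that leaves out 1 library, a count given without its share of all genes is not a result about the members. On library totals 30 members passed over 8 h in sgNS+EV (12.9% of all genes higher and 48.9% lower). In sgQKI+QKI7-△KH 31 passed (13.6% of all genes higher and 48.8% lower). For sgQKI+EV against sgNS+EV at 0 h the count of 0 became 2 higher with quantile normalisation (2.59% of all genes higher). It became 3 higher on library totals (7.41%) and 1 higher on totals without ribosomal RNA (2.18%). With the compared groups alone it became 1 lower (9.44% of all genes lower). The count of 1 between the QKI7 forms at 0 h became 0 with quantile normalisation, both kinds of totals and the compared groups alone, 2 with a mean of at least 5 and with the replicate block, and 7 without both sgQKI+QKI7-WT 4 h libraries. For sgQKI+QKI7-△KH against sgQKI+EV the 12 became 0 with quantile normalisation and both kinds of totals. The count was 24 without both sgQKI+QKI7-WT 4 h libraries and 27 with the compared groups alone (29.4% of all genes higher). The 8 h decay difference of sgQKI+EV and sgNS+EV gave 1 member with a mean of at least 5, 1 with the replicate block, 2 without both sgQKI+QKI7-WT 4 h libraries and 7 with the compared groups alone (10.7% of all genes with a larger fall). Its 4 h form gave 12 with quantile normalisation (8.7% of all genes with a smaller fall and 10.8% with a larger one). On totals it gave 26, 1 with a smaller fall and 25 with a larger one (1.09% and 37.6% of all genes). Totals without ribosomal RNA gave 21 (2.73% and 30%). The same difference gave 14 without both sgQKI+QKI7-WT 4 h libraries and 13 with the compared groups alone (7.99% and 17% of all genes). The 4 h difference of the QKI7 forms gave 0 with quantile normalisation, both kinds of totals and the compared groups alone.

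Leaving out 1 library gave 50 to 50 members over 8 h, 41 to 44 over 4 h, 42 to 44 in sgNS+EV, 46 to 49 in sgQKI+EV, 46 to 50 in sgQKI+QKI7-△KH and 44 to 48 in sgQKI+QKI7-WT. It gave 0 to 0 for sgQKI+EV against sgNS+EV and for sgQKI+QKI7-WT against sgQKI+EV at 0 h, 0 to 1 between the QKI7 forms, 0 to 9 for sgQKI+QKI7-△KH against sgQKI+EV, 0 to 0 for both 8 h decay differences, 0 to 5 for the 4 h difference of sgQKI+EV and 0 to 33 for that of the QKI7 forms. The paired ratios ranged from 0.559 to 0.640 (CNOT6 and CNOT6L), 0.446 to 0.519 (CNOT7 and CNOT8), -0.900 to -0.860 (DCP1A and DCP1B), 0.0537 to 0.124 (UPF3A and UPF3B), -0.510 to -0.465 (DIS3 and DIS3L) and -0.323 to -0.266 (XRN1 and XRN2). With quantile normalisation UPF3A and UPF3B turned to -0.15 and XRN1 and XRN2 to 0.073.

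The mean 8 h change turned positive in 13 members, given with quantile normalisation, library totals and totals without ribosomal RNA in that order: EXOSC5 (0.78, 0.47, 0.41), EXOSC1 (0.57, 0.39, 0.32), PAN2 (0.77, 0.35, 0.29), SMG9 (0.53, 0.29, 0.22), LSM3 (0.25, 0.29, 0.23), LSM7 (0.26, 0.28, 0.22), SKIV2L (0.51, 0.15, 0.090), UPF3A (0.41, 0.24, 0.17), UPF3B (0.56, 0.12, 0.060), CNOT10 (0.31, 0.078, 0.015), LSM4 (0.32, 0.24, 0.18), LSM5 (0.25, 0.16, 0.099) and EXOSC8 (0.42, 0.26, 0.20). LSM1 (0.17, 0.025) and WDR61 (0.19, 0.037) turned under the first 2. Another 16 turned with quantile normalisation alone: PARN (0.15), EXOSC10 (0.011), SMG6 (0.20), DCP1B (0.17), CNOT4 (0.12), DCPS (0.31), EDC3 (0.19), EDC4 (0.14), LSM6 (0.24), EXOSC2 (0.079), EXOSC3 (0.17), EXOSC4 (0.17), EXOSC7 (0.25), TTC37 (0.17), UPF2 (0.15) and SMG5 (0.13).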
